A study of Homo sapiens with 6 samples.

Results

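The 10 cadherin genes described here are CDH1, CDH2, CDH3, CDH4, CDH6, CDH8, CDH9, CDH10, CDH11 and CDH13. They are 10 of the 19977 genes counted in each library of human induced pluripotent stem cell (hiPSC) aggregates. Each was found by its Ensembl identifier, which GENCODE 44 (GRCh38) pairs with the symbol. The list was chosen by the levels of CDH9, which earlier results of the same libraries had shown to be far lower in medium with PEG and HS than in E8 control. The differences of the 10 genes between media are therefore given as a description, with no p-value, and how many of them passed the threshold is given once beside the share of all genes.

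Cadherins are calcium-dependent adhesion molecules that join neighbouring cells, mostly by binding the same or a related cadherin on the other cell. The tail of a classical cadherin binds p120-catenin and beta-catenin, and beta-catenin binds alpha-catenin, which links the junction to actin. Type I cadherins hold epithelia and early neural tissue together, pluripotent stem cells in culture form E-cadherin junctions, and type II cadherins are mostly known from neurons, neural crest and mesenchyme. CDH1 (E-cadherin), CDH2 (N-cadherin), CDH3 (P-cadherin) and CDH4 (R-cadherin) are type I, and CDH6 (K-cadherin), CDH8, CDH9, CDH10 and CDH11 (OB-cadherin) are type II. CDH13 (T-cadherin) is held in the membrane by a GPI anchor and has no cytoplasmic tail, so by its structure it is not a classical cadherin, and it is kept apart from both types.

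NCRM-1 hiPSCs were grown as aggregates in vertical wheel bioreactors and polyadenylated RNA was sequenced on day 4, in 3 libraries from E8 with 10 mg/ml polyethylene glycol (PEG) and 0.1 µg/ml heparin sodium salt (HS) and in 3 libraries from E8 alone. In both media 50% of the medium was replaced on day 2. NCRM-1 is a single line, reprogrammed episomally from CD34+ cells of cord blood. By the labels each medium had 1 bioreactor, and the spread between the 3 libraries of a medium, which p-values measure, may be the spread within 1 vessel. The treatment text of the labels describes PEG and heparin for all 6 libraries, whereas the treatment given for each library is control for 3 of them, and the latter was followed.

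The libraries held 26991279 to 36185138 counts, with TMM normalization factors of 0.994 to 1.01, and no library stood apart. Levels are given as CPM, counts scaled to one common library size after TMM normalization, as mean ± SD with n = 3, and differences as the log2 fold change of PEG and HS over E8 control, called the log2 difference, with its standard error (SE). Of 16505 genes with at least 10 counts over the 6 libraries, 4173 (25.3%) passed edgeR's quasi-likelihood test at an adjusted p under 0.05, 2157 of them (13.1%) lower in PEG and HS, and 3269 (19.8%) had a lower level in each PEG and HS library than in any E8 control library. The median log2 difference over the genes tested was 0.0031. In bulk RNA, fewer cells that carry a transcript and less of it per cell cannot be told apart.

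All 10 cadherins had enough counts to be fitted. In 9 of them each PEG and HS library lay under each E8 control library, against 19.8% of all genes, and 8 passed the edgeR threshold, each lower in PEG and HS, against 13.1% of all genes. Since the difference of CDH9 chose the list, nothing is read from these counts. The median log2 difference of the 10 was -0.60. Summed over the 10, the libraries held 704.7 to 728.5 CPM in PEG and HS, against 867.8 to 903.3 CPM in E8 control.

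**Figure D1:**
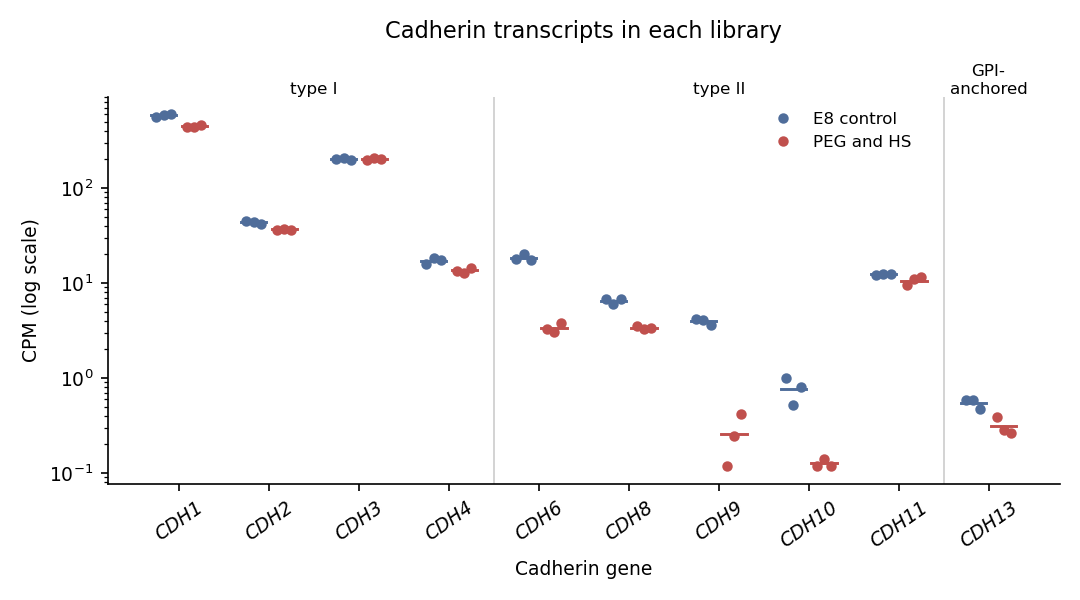
Level of each of the 10 cadherins in CPM on a log axis, with a point for each library (blue E8 control, red PEG and HS) and a bar for the mean of 3 libraries. CDH9 stood at 3.603 to 4.23 CPM in E8 control and 0.119 to 0.414 CPM in PEG and HS, whereas the points of CDH3 overlapped between 197 and 209 CPM.

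CDH9 (ENSG00000113100) lies on the minus strand of chromosome 5, from 26880597 to 27121150 in GRCh38, and encodes a type II cadherin known from synapses of the hippocampus. It had 4, 7 and 14 counts in the PEG and HS libraries and 114, 133 and 130 counts in the E8 control libraries. On the CPM scale these were 0.119, 0.248 and 0.414 in PEG and HS, against 4.23, 4.09 and 3.603 in E8 control. The PEG and HS libraries differed among themselves by more, in proportion, than the E8 control libraries, and the media were far apart. The mean level was 0.260 ± 0.148 CPM in PEG and HS, against 3.97 ± 0.328 CPM in E8 control, a ratio of 15.3. The log2 difference was -3.91 (SE 0.27), and 32 of the 16505 genes tested had a lower one. Over the alternative settings its log2 difference lay between -4.45 without PEG and HS replicate 3 and -3.54 without PEG and HS replicate 1.

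CDH10 (ENSG00000040731, chromosome 5, 24487100 to 24644978, minus strand) is a close relative of CDH9 and is likewise known from the brain. Of the 5 type II genes among the 10, it had the lowest mean per length in both media. It had 4 counts in each PEG and HS library and 27, 17 and 29 counts in the E8 control libraries. Its level was 0.119, 0.142 and 0.118 CPM in PEG and HS, against 1.001, 0.523 and 0.804 CPM in E8 control. The media did not overlap, and E8 control replicate 2 was the lowest of its medium. The means were 0.126 ± 0.013 and 0.776 ± 0.240 CPM, a ratio of 6.15, and the log2 difference was -2.58 (SE 0.44).

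The promoters of CDH9 and CDH10 are shown because both genes were among the lowest of the 10 relative to E8 control and share words of letters that the choice of genes did not use. The windows come from RefSeq (GRCh38.p14) and span 250 bases before and 20 bases from the annotated start, 5′ to 3′ on the minus strand, at chr5:27038567-27038836 for CDH9 and chr5:24644959-24645228 for CDH10. Capitals mark the words of at least 10 bases found in both.
CDH9: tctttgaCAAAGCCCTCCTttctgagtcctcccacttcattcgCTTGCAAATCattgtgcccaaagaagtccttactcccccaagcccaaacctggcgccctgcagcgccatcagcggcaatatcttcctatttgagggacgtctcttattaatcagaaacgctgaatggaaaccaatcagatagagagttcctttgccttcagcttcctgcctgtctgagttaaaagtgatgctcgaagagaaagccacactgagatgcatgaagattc
CDH10: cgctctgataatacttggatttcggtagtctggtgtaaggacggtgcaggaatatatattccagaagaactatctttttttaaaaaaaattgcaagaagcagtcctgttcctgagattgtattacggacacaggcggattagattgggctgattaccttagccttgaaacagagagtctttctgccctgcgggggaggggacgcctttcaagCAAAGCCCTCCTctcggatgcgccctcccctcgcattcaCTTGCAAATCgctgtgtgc

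The first shared word, CAAAGCCCTCCT, begins 243 bases before the start of CDH9 and 38 bases before that of CDH10. It occurs, on either strand, in 7 of the 35116 promoter windows of the RefSeq table (0.0199%), those of CDH9 and CDH10 among them. The second, CTTGCAAATC, begins 207 bases before the start of CDH9 and at base 2 from the start of CDH10. It occurs in 22 of the windows (0.0626%), those of CDH9, CDH10 and CDH12 among them. The words were found by comparing these windows after the genes had been picked, and a match of letters is no sign of a bound factor. The GENCODE gene of CDH9 begins further upstream than the RefSeq start used here.

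Of the 10 cadherins, CDH2, CDH4, CDH8, CDH9 and CDH10 had a window in the RefSeq table. The upstream 250 bases held 48.4% G or C for CDH9 and 47.6% for CDH10, against a median of 58% over all windows. CDH2, CDH4 and CDH8 have 2 windows each, with 42% and 66% for CDH2, 58.4% and 63.6% for CDH4, and 64% and 66% for CDH8. The CG pairs numbered 7 in CDH9 and 10 in CDH10, against a median of 11, and 4 to 19 in the windows of the other cadherins. A window of CDH2 thus held less G or C and fewer CG pairs than those of CDH9 and CDH10. The E-box words CACCTG and CAGGTG, which are each other's reverse complement and the core that SNAI and ZEB repressors read, were in 17.5% of all windows over the same 250 bases. Among the cadherin windows only 1, a CDH4 window, held such a word.

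CDH6 (ENSG00000113361, chromosome 5, 31193686 to 31329146), K-cadherin of fetal kidney and of early neural crest, was the most abundant of the 3 chromosome 5 cadherins per length. It had 111, 86 and 130 counts in PEG and HS, against 487, 654 and 627 counts in E8 control. This made 3.29, 3.04 and 3.84 CPM against 18.1, 20.1 and 17.4 CPM, with the media well separated and little spread within them. The mean level was 3.39 ± 0.408 CPM in PEG and HS, against 18.5 ± 1.435 CPM in E8 control, a ratio of 5.46, with a log2 difference of -2.44 (SE 0.093). Of its transcript sequence, 9.91% in words of 31 bases also occurs in other genes.

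CDH8 (ENSG00000150394, chromosome 16, 61647242 to 62037035), known from cortical and striatal circuits, was at 3.53, 3.29 and 3.37 CPM in PEG and HS, against 6.75, 6.03 and 6.76 CPM in E8 control, with no overlap, and the mean in PEG and HS was 52.1% of that in E8 control. The log2 difference was -0.94 (SE 0.10).

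CDH11 (ENSG00000140937, chromosome 16, 64943753 to 65126112), OB-cadherin of osteoblasts and other mesenchyme, stood closest to E8 control among the 5 type II genes of the 10. Its level was 9.52, 10.9 and 11.5 CPM in PEG and HS, against 12.3, 12.5 and 12.4 CPM in E8 control. The media did not overlap, but the highest PEG and HS library came near the lowest E8 control library. The log2 difference was -0.22 (SE 0.075), and it lay between -0.28 without PEG and HS replicate 3 and -0.15 without PEG and HS replicate 1.

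**Figure D2:**
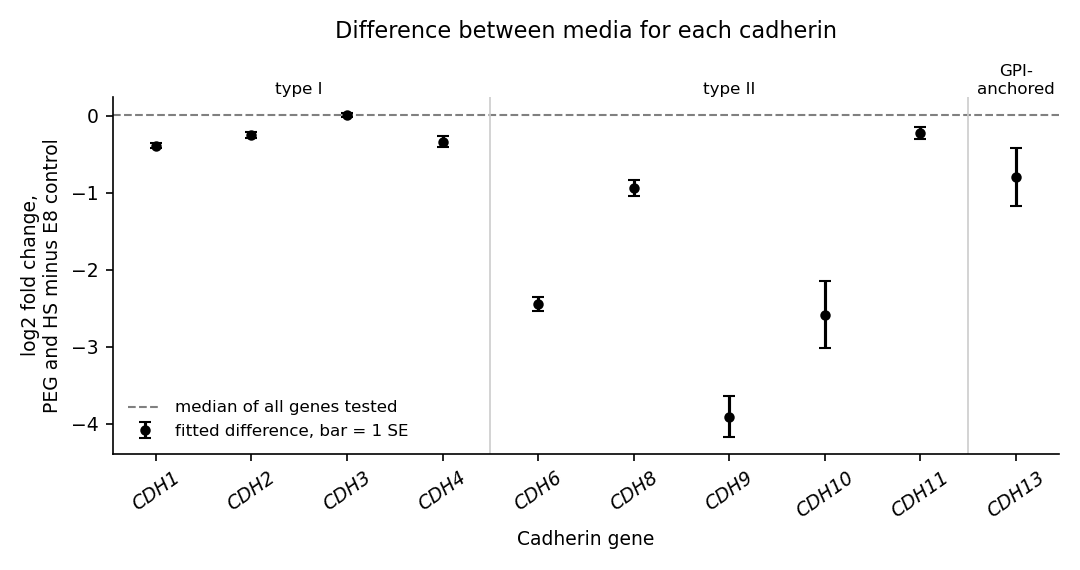
Log2 difference of each cadherin, PEG and HS minus E8 control, from the edgeR fit over all genes. Points are fitted values, bars are 1 SE, and the dashed line is the median of all genes tested (0.0031). Among the 10, the type II genes spread from -3.91 (CDH9) to -0.22 (CDH11), and the type I genes lay between -0.39 (CDH1) and 0.0050 (CDH3).

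CDH1 (ENSG00000039068, chromosome 16, 68737292 to 68835537), E-cadherin, the main junctional cadherin of epithelia and pluripotent cells, was the most abundant of the 10 per length. It had 14777, 12423 and 15492 counts in PEG and HS, against 15169, 19132 and 21639 in E8 control. Scaled to library size, this made 438.2, 439.6 and 457.8 CPM in PEG and HS, against 562.3, 588.9 and 599.7 CPM in E8 control. The media were separated by a gap much wider than the spread within either. The means were 445 ± 10.9 and 584 ± 19.2 CPM, so that PEG and HS held 76.3% of the control level, with a log2 difference of -0.39 (SE 0.030).

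CDH3 (ENSG00000062038, chromosome 16, 68636189 to 68727468), P-cadherin, first described in placenta, ends 9823 bases before CDH1 begins. Its level was 199.6, 209.1 and 200.2 CPM in PEG and HS, against 201.5, 208.0 and 197.1 CPM in E8 control. The libraries of the media overlapped and the log2 difference was 0.0050 (SE 0.030). The pair of neighbours thus differed, with CDH1 lower in each PEG and HS library and CDH3 with its media mixed.

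CDH2 (ENSG00000170558, chromosome 18, 27932879 to 28177946), N-cadherin, the cadherin of neural plate and mesenchyme, was at 36.5, 37.2 and 36.5 CPM in PEG and HS, against 45.3, 44.3 and 41.7 CPM in E8 control. It was lower in each PEG and HS library, with a log2 difference of -0.25 (SE 0.043). CDH4 (ENSG00000179242, chromosome 20, 61252261 to 61940617), R-cadherin of retina and brain, was at 13.5, 12.7 and 14.6 CPM in PEG and HS, against 15.8, 18.2 and 17.5 CPM in E8 control. Its media did not overlap either, with a log2 difference of -0.34 (SE 0.070). E-cadherin and N-cadherin, which replace each other in an epithelial to mesenchymal transition, were thus both lower in PEG and HS.

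CDH13 (ENSG00000140945, chromosome 16, 82626965 to 83800640), T-cadherin, which binds adiponectin, was near the limit of what the depth could count. It had 13, 8 and 9 counts in PEG and HS, against 16, 19 and 17 in E8 control. Its level was 0.386, 0.283 and 0.266 CPM in PEG and HS, against 0.593, 0.585 and 0.471 CPM in E8 control, and the media did not overlap. The log2 difference was -0.80 (SE 0.37). HSBP1, which is also counted, overlaps CDH13 on the same strand.

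To compare cadherins with each other, counts were divided by the length of each gene's exons, as CPM per kilobase of exon (RPKM scale). In E8 control CDH1 stood at 96.1 ± 3.17, CDH3 at 31.6 ± 0.861, CDH2 at 5.10 ± 0.215 and CDH4 at 2.29 ± 0.164 on this scale. CDH6 followed at 1.49 ± 0.115, CDH9 at 0.945 ± 0.0781, CDH11 at 0.934 ± 0.0097 and CDH8 at 0.481 ± 0.0308, and CDH10 and CDH13 came last. Neighbours in this order were apart in all 3 libraries except CDH9 and CDH11, which overlapped and changed places when the length of the canonical transcript was used.

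In PEG and HS the order began with the same 4 type I genes, CDH1 at 73.3 ± 1.80, CDH3 at 31.8 ± 0.832, CDH2 at 4.28 ± 0.0445 and CDH4 at 1.81 ± 0.123 on the per-length scale. The fifth was CDH11 at 0.801 ± 0.0754. CDH6 at 0.273 ± 0.0328 and CDH8 at 0.251 ± 0.00896 overlapped. CDH9 held the eighth place, against the sixth in E8 control, at 0.0618 ± 0.0352, where its libraries overlapped those of CDH10 at 0.0345 ± 0.00365. CDH10 in turn overlapped CDH13 at 0.0283 ± 0.00586, and this pair changed places with the canonical length.

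Of the per-length sum of the 10 cadherins, CDH1 made up 64.3% to 65.8% in the PEG and HS libraries and 68.2% to 70.2% in the E8 control libraries. CDH3 took 27.4% to 29.1% in PEG and HS, against 21.9% to 23.2% in E8 control. Type I genes together held 98.6% to 98.8% in PEG and HS, against 96.9% to 97.2% in E8 control. The type II genes held 1.18% to 1.36% and 2.78% to 3.06%. On the CPM scale the 5 type II genes summed to 16.6 to 19.2 in PEG and HS, against 40.9 to 43.3 in E8 control. Among the 10, the type II sum was smaller in every PEG and HS library. It includes CDH9, whose difference chose the list, so nothing about type II cadherins is read from it. Type I transcripts made up most of the per-length sum of the 10 in both media. CDH24, a type II cadherin outside the 10, was named after its values were seen. It was at 36.8 ± 2.97 CPM in PEG and HS, against 38.6 ± 0.513 CPM in E8 control. Its media overlapped, with a log2 difference of -0.07 (edgeR adjusted p = 0.36). On the CPM scale it lay above the 5 type II genes summed in PEG and HS and somewhat under them in E8 control. Its exons span 3748 bases, against 12443 for CDH6 and 13275 for CDH11, so it weighs more per length than in CPM, in both media. Its per-length level is not in the shares, which hold for the 10 genes only and could differ between media otherwise with CDH24 included.

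By position, 5 of the 10 lie on chromosome 16 and 3 on chromosome 5. The chromosome 5 genes had log2 differences of -3.91 (CDH9), -2.58 (CDH10) and -2.44 (CDH6). On the same arm CDH18, a type II cadherin outside the 10, had 20 counts over the 6 libraries and a log2 difference of -0.29 (edgeR adjusted p = 0.82). CDH12 had 8 counts, all in PEG and HS (6, 1 and 1), and was not tested.

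The 5 genes whose profile over the 6 libraries lay nearest that of CDH9 were GREB1L, SGMS2, SMIM10L2A, PLCL2 and SEMA6D. Likeness was the Euclidean distance between profiles of log2(CPM + 0.5), each centred on its own mean, over 13432 genes that reached 1 CPM in all libraries of their higher medium. GREB1L, a gene of kidney and inner ear development, was nearest at a distance of 0.306, with 3.68 ± 0.644 CPM in PEG and HS, against 22.1 ± 2.76 CPM in E8 control. SGMS2, a sphingomyelin synthase, followed at 0.331, with 0.250 ± 0.0440 and 3.70 ± 0.232 CPM. Both were lower in each PEG and HS library, with log2 differences of -2.59 and -3.87, against -3.91 for CDH9. The pseudocount of 0.5 is above the CDH9 level in PEG and HS (0.260 CPM), which narrows the difference of CDH9 on this scale.

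SMIM10L2A, which encodes a small membrane protein, was at 0.412, PLCL2, a phospholipase C relative without catalytic activity, at 0.429, and SEMA6D, a transmembrane semaphorin, at 0.441. Their levels were 7.198 ± 0.611, 5.49 ± 0.960 and 3.15 ± 0.366 CPM in PEG and HS, against 39.8 ± 2.66, 32.7 ± 2.98 and 18.9 ± 0.824 CPM in E8 control. The log2 differences were -2.47, -2.57 and -2.57 in this order, smaller in size than that of CDH9. Because the profile has the difference between media in it, each of these genes is lower in PEG and HS by the way it was picked. Of the 5, 1 (SGMS2) was among the nearest 5 with a pseudocount of 0.1 CPM and 1 (again SGMS2) with a pseudocount of 1 CPM. Without PEG and HS replicate 1, 3 of the 5 were shared, and without PEG and HS replicate 3, 2 were.

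**Figure D3:**
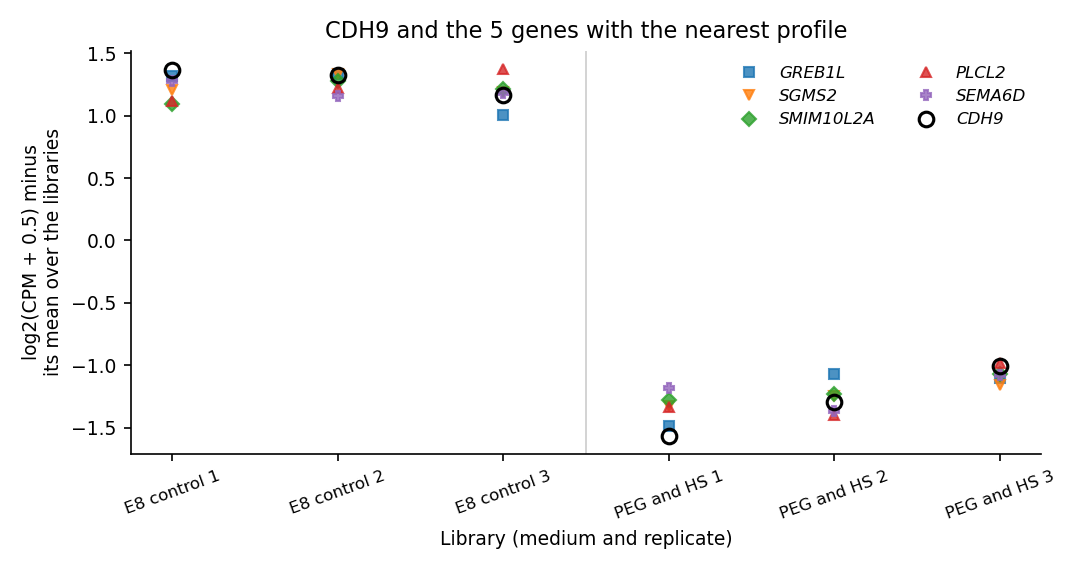
Profile of CDH9 (open circles) and of the 5 genes nearest to it over the 6 libraries, as log2(CPM + 0.5) minus the mean of the 6 libraries. GREB1L had the smallest distance to CDH9 (0.306) and SEMA6D the largest of the 5 (0.441), and all 6 genes lie above their mean in E8 control and under it in PEG and HS.

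Genes that act with these cadherins were taken from fixed lists, and their counts can be read against the 25.3% of all genes that passed the edgeR threshold. Among 13 other cadherins, 10 were tested, of which 2 fell and none rose in PEG and HS, with a median log2 difference of -0.26. CDH7, a type II cadherin of migrating neural crest, fell from 2.31 ± 0.297 to 1.37 ± 0.283 CPM (log2 difference -0.75, SE 0.20, adjusted p = 0.0123). CDH23, a long cadherin of the tip links of hair cells, fell from 5.86 ± 0.608 to 4.17 ± 0.711 CPM (log2 difference -0.50, SE 0.13, adjusted p = 0.00863). Both calls were lost without PEG and HS replicate 1, where the adjusted p was 0.0631 for CDH7 and 0.0504 for CDH23. CDH16 and CDH19 had no count in any library. CDH22, named after its values were seen, had the lowest log2 difference of the list, -2.06 (SE 0.80), from 27 counts in all, with its media overlapping (adjusted p = 0.0745).

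Of 10 catenins and other partners of the cadherin tail, 3 fell and none rose, with a median log2 difference of -0.083. CTNNB1 (beta-catenin) was at 511 ± 7.70 CPM in PEG and HS, against 532 ± 9.02 CPM in E8 control (log2 difference -0.06, SE 0.025, adjusted p = 0.115). CTNNA1 (alpha-catenin) was at 490 ± 1.28 and 503.8 ± 2.85 CPM (log2 difference -0.04, SE 0.024, adjusted p = 0.238). CTNND1 (p120-catenin) was at 349 ± 7.30 and 357 ± 15.1 CPM (adjusted p = 0.529), and 40.6% of its transcript sequence also occurs in other genes, among them a counted gene that overlaps it. These 3 core catenins thus did not pass the threshold, with differences under 0.1 on the log2 scale. CTNNB1 and CTNNA1 were still lower in each PEG and HS library, whereas the media of CTNND1 overlapped. In the list 7 of 10 genes were lower in each PEG and HS library, against 19.8% of all genes.

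CTNND2 (delta-catenin, mostly known from neurons) fell from 21.9 ± 0.679 to 16.8 ± 0.364 CPM (log2 difference -0.39, SE 0.054, adjusted p = 6.72e-05). VCL (vinculin, which binds alpha-catenin under tension) fell by 0.11 on the log2 scale (adjusted p = 0.00532). JUP (plakoglobin, the relative of beta-catenin that also sits in desmosomes) fell by the same 0.11 (adjusted p = 0.0215), and its call was lost without PEG and HS replicate 1, PEG and HS replicate 3 or E8 control replicate 1, with an adjusted p of up to 0.119.

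Nectins are immunoglobulin-like molecules that start contacts at which cadherins gather. Of 6 nectin and afadin genes 5 fell and none rose, with a median log2 difference of -0.26. NECTIN2 fell from 133 ± 4.00 to 100.2 ± 0.510 CPM (log2 difference -0.41, SE 0.031, adjusted p = 9.25e-08). NECTIN3 fell from 54.8 ± 0.916 to 42.5 ± 0.884 CPM (log2 difference -0.37, adjusted p = 2.66e-06). PVR, a nectin-like receptor with 21.9% of its sequence also in other genes, fell from 23.8 ± 0.843 to 18.4 ± 0.812 CPM (adjusted p = 0.000158). NECTIN1 fell by 0.16 on the log2 scale (adjusted p = 0.00165). AFDN (afadin), which ties nectins to actin, is the fifth and fell by 0.15 (adjusted p = 0.000807). The 5 calls were the same in number in every setting tried.

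**Figure D4:**
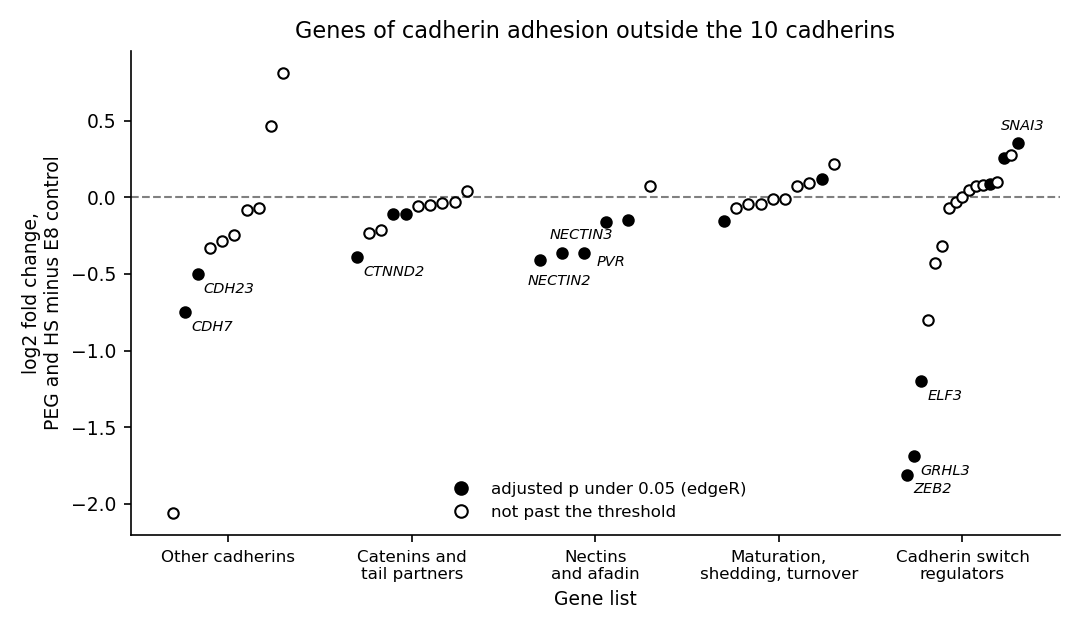
Log2 difference, PEG and HS minus E8 control, of each tested gene of the 5 lists around the cadherins, ordered within its list, with the median of all genes as a dashed line. Filled points have an edgeR adjusted p under 0.05: 2 of 10 other cadherins, 3 of 10 catenins and tail partners, 5 of 6 nectins and afadin, 2 of 10 genes of maturation and turnover and 6 of 17 switch regulators. The open point at -2.06 is CDH22.

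Of 10 genes that mature, cut or remove cadherins, 1 fell and 1 rose, with a median log2 difference of -0.013. CBLL1 (Hakai, the ubiquitin ligase of E-cadherin) rose from 47.5 ± 1.53 to 51.6 ± 1.64 CPM (log2 difference 0.12, adjusted p = 0.0416). The CBLL1 call was lost under DESeq2 and without any 1 of the 6 libraries, with an adjusted p of up to 0.182.

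Of 17 transcription and splicing regulators known for the switch between epithelial and mesenchymal cadherins, 3 fell and 3 rose, with a median log2 difference of 0.0034. ZEB2, a repressor of CDH1, fell from 3.68 ± 0.411 to 1.05 ± 0.146 CPM (log2 difference -1.81, SE 0.17, adjusted p = 1.55e-06). GRHL3 and ELF3, which are active in surface epithelia, also fell. GRHL3 went from 3.94 ± 0.201 to 1.22 ± 0.0589 CPM (log2 difference -1.69, SE 0.15, adjusted p = 6.12e-07). ELF3 went from 9.99 ± 0.0754 to 4.33 ± 0.316 CPM (log2 difference -1.20, SE 0.085, adjusted p = 4.41e-08), and 11.4% of its sequence also occurs in other genes.

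SNAI3 rose from 6.48 ± 0.610 to 8.33 ± 0.717 CPM (log2 difference 0.36, SE 0.094, adjusted p = 0.0114), and this call was lost without E8 control replicate 1, with an adjusted p of 0.0510. GRHL1 and ESRP1, epithelial regulators of transcription and of splicing, were the other 2 that rose, with log2 differences of 0.26 and 0.09 (adjusted p = 0.0221 and 0.0374). The GRHL1 call was lost under DESeq2 and without PEG and HS replicate 1, E8 control replicate 1 or E8 control replicate 2 (adjusted p of up to 0.125), and the ESRP1 call without any 1 library except E8 control replicate 3 (up to 0.161). Without E8 control replicate 1, only 3 of the 17 genes passed the threshold. The CDH1 repressors SNAI1 and ZEB1, named after their values were seen, were at 5.93 ± 0.172 against 6.05 ± 0.163 CPM and at 0.587 ± 0.0528 against 0.803 ± 0.294 CPM, and neither passed it (adjusted p = 0.846 and 0.387). The list thus had members on both sides, and the genes that fell include both a CDH1 repressor and epithelial factors.

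Markers of hiPSCs and of other cells that an aggregate can hold were counted beside the cadherins, again to be read against the 25.3% of all genes that were called and the 13.1% that were called lower. Of 10 pluripotent stem cell markers 3 rose and 4 fell, and their sum was 9376 to 9653 CPM in PEG and HS, against 9705 to 9904 CPM in E8 control, with none at 0. NANOG rose (log2 difference 0.55) and so did L1TD1 (0.36), while SOX2 (-0.59) and PODXL (-0.41) fell, with adjusted p = 6.55e-10, 1.49e-06, 4.79e-10 and 3.19e-09 in this order. POU5F1 was the other gene that rose (0.23, adjusted p = 3.2e-06). Other genes hold 38.2% of the sequence of NANOG and 45.1% of that of POU5F1. The aggregates thus carried the markers of the labelled cell type in both media.

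Of 20 neuroectoderm and neuron markers, 19 were tested, of which 8 fell and 1 rose, with a median log2 difference of -0.78. Their sum was 282.5 to 300.0 CPM in PEG and HS, against 357.6 to 374.0 CPM in E8 control. FEZF1, LHX5, SOX1 and OLIG3, transcription factors of the early neural plate, fell with log2 differences of -2.45, -2.37, -1.70 and -1.62 (adjusted p = 4.67e-12, 2.25e-11, 6.51e-07 and 9.79e-11). HES5, also among the 8, fell on 48 counts in all (edgeR adjusted p = 0.0331), and its call was lost in 6 alternative settings. SIX6, a factor of the early eye field, was the gene that rose, from 7.55 ± 0.136 to 13.6 ± 0.771 CPM (log2 difference 0.85, adjusted p = 3.45e-07). The neuron markers TUBB3 and DCX, named after their values were seen, were at 237 ± 6.54 against 241 ± 5.89 CPM and at 9.04 ± 0.626 against 8.60 ± 0.422 CPM, and neither passed the threshold (adjusted p = 0.638 and 0.537). SOX1, OLIG3 and LHX5 were named by the study on these libraries, so their direction is not independent evidence. CDH6, CDH8, CDH9, CDH10 and CDH2, which neural cells also use, were lower in the same libraries, and the part of such cells in their levels was not tested.

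Of 12 neural crest and mesenchyme markers 4 fell and 1 rose, with a median log2 difference of -0.61 and a sum of 131.9 to 144.4 CPM in PEG and HS, against 183.7 to 207.2 CPM in E8 control. COL1A1, a collagen of mesenchyme, fell from 120.2 ± 5.23 to 60.1 ± 3.02 CPM (adjusted p = 9.67e-11), and LUM, COL3A1 and SOX10 fell as well, with log2 differences of -1.19, -0.74 and -0.48 (adjusted p = 0.0019, 0.00428 and 0.0223). COL3A1 was at 17.6, 17.2 and 9.87 CPM in E8 control, and replicate 3 came near the highest PEG and HS library (9.59 CPM). LUM was also lowest in replicate 3 of E8 control. FOXD3, a factor of neural crest that pluripotent cells also express, was the gene that rose, from 41.6 ± 0.943 to 51.9 ± 1.91 CPM (log2 difference 0.32, adjusted p = 2.85e-05). SNAI2 and TWIST1 are on this list and on that of the switch regulators, and neither passed the threshold. The SOX10 call was lost under DESeq2 and without any 1 library except PEG and HS replicate 2 or E8 control replicate 2, with an adjusted p of up to 0.0858. CDH11 and CDH6, cadherins of such cells, were lower in the same libraries, and whether these cells account for it was not tested.

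Of 12 trophectoderm and amnion markers 9 were tested and 4 fell, with a median log2 difference of -1.12 and a sum of 21.8 to 27.01 CPM in PEG and HS, against 56.9 to 68.1 CPM in E8 control. TFAP2A fell from 6.00 ± 0.230 to 0.603 ± 0.270 CPM (log2 difference -3.30, adjusted p = 9.84e-09), IGFBP3 from 45.3 ± 5.78 to 17.2 ± 2.49 CPM (adjusted p = 2.89e-08) and KRT7 by 0.92 on the log2 scale (adjusted p = 1.9e-05). HAND1 fell as well (adjusted p = 0.0276), from 16 counts in all, a call lost without PEG and HS replicate 2 or 3 or E8 control replicate 1, with an adjusted p of up to 0.0861. It had too few counts to be tested without E8 control replicate 2 or with filterByExpr, and DESeq2 gave it no adjusted p. CGA had no count in any library, and 8 of the 12 were under 1 CPM in each library. IGFBP3 alone was the larger part of the sum in both media. GABRP, named after its values were seen, was the 1 gene of the list with a higher level in each PEG and HS library. It was at 2.29 ± 0.0996 CPM in PEG and HS, against 1.69 ± 0.214 CPM in E8 control. With a log2 difference of 0.43 it did not pass the threshold (edgeR adjusted p = 0.0816).

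Of 12 mesoderm and endoderm markers 10 were tested and 2 fell, a share not far from the 13.1% called lower among all genes, with a median log2 difference of -0.44 and a sum of 8.81 to 8.92 CPM in PEG and HS, against 10.6 to 11.4 CPM in E8 control. TBX6 fell by 0.48 on the log2 scale (adjusted p = 0.0114, and 0.0620 without E8 control replicate 3). MEOX1 fell on 11 counts in all, with none in PEG and HS (adjusted p = 0.0315). Its call was lost without any 1 PEG and HS library, with an adjusted p of up to 0.0826. It had too few counts to be tested without E8 control replicate 1 or 2 or with filterByExpr, and DESeq2 gave it no adjusted p. MIXL1, named after its values were seen, was the 1 gene of the list with a higher level in each PEG and HS library. It was at 1.95 ± 0.207 CPM in PEG and HS, against 1.42 ± 0.286 CPM in E8 control. With a log2 difference of 0.44 it did not pass the threshold (edgeR adjusted p = 0.122). The share that mesoderm and endoderm cells had in the cadherin levels was not tested.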

How the data were processed

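Polyadenylated RNA of 6 libraries was used, 3 of each medium, with the medium taken from the treatment label. Libraries were made with a stranded kit (Illumina Stranded mRNA Prep). In the nf-core/rnaseq pipeline, reads were trimmed (Trim Galore 0.6.7) and mapped to GRCh38 (STAR 2.6.1), and the authors deposited raw counts per gene, 1 library per file. The counting tool, whether counting used strand, the handling of multi-mapped reads and the gene annotation are not given in the sources used here, so genes that share sequence or overlap are uncertain. Whether reads of genes on the opposite strand were kept apart is therefore not known here.

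From these counts, genes with at least 10 counts over the 6 libraries were normalized with TMM and compared with edgeR 4.0.16 (R 4.3.3; glmQLFit, glmQLFTest, no covariate). P-values were adjusted by Benjamini-Hochberg over the 16505 genes tested and a gene was called at an adjusted p under 0.05. An exact permutation test of 3 libraries against 3 cannot go below p = 0.1 and was not used. Per-length levels used the union of GENCODE 44 exons. Gene symbols matched 19916 of 19977 identifiers. Shared sequence is the share of words of 31 bases that occur in transcripts of other genes.

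The members and all gene lists were chosen with earlier results of these data known. The named genes are the 10 members, in each list up to 4 called genes without overlap between media by size of change, CTNNA1, CTNNB1, CTNND1 and JUP, and the 5 genes nearest CDH9. Others are said to be named after their values were seen, or are the remaining calls of a list. Chi-square per degree of freedom between libraries of a medium was 2.61 to 3.597, so none was a duplicate. Alternatives were DESeq2 1.42.0, limma-voom of limma 3.58.1, RLE factors, library size alone, no filter, filterByExpr, a replicate block, each library left out in turn, and other pseudocounts. Some genes that the rule takes are not reported here.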

Additional observations from a re-analysis of the deposited data

How the results depend on the processing

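The number of genes past the threshold was 4173 with edgeR and TMM, 3367 with DESeq2, 4162 with RLE factors, 4259 with library size alone, 4172 with limma-voom, 4256 without a filter and 4264 with filterByExpr. Leaving out 1 library gave 3114 to 3674. With the replicate number as a block it was 4444, and the block left 8 of the 10 cadherins past the threshold. The libraries share only a number, with correlations of their deviations of 0.00392 to 0.0137. The HES5 call was lost under the block, under DESeq2 and without PEG and HS replicate 1 or 2 or E8 control replicate 1 or 2. Its adjusted p was up to 0.117.

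No called direction reversed. The 10 cadherins kept the sign of their log2 fold change in each of 14 settings except CDH3, which lay between -0.02 and 0.02. As a description, CDH11 was past the threshold in 8 settings and not in 6, CDH3 and CDH13 in none, and the other 7 in all 14. Among other cadherins, 0 to 3 passed when 1 library was left out, with 0 without PEG and HS replicate 1 (edgeR, where 2 had an unadjusted p under 0.05). With all libraries 2 passed the adjusted threshold under DESeq2 and 3 under limma-voom. Of the maturation and turnover genes 1 passed under DESeq2 and 1 without any 1 library, against 2. Of the switch regulators 3 to 6 passed without 1 library, and of the mesoderm and endoderm markers 1 under DESeq2, which gave MEOX1 no adjusted p, 1 with filterByExpr, where MEOX1 was not tested, and 1 to 2 without 1 library. Of the 5 genes nearest CDH9, 1 was kept with a pseudocount of 0.1 CPM, 1 with 1 CPM and 2 to 5 without 1 library. The causes were not tested. The depth limits CDH9, CDH10 and CDH13, where single counts move a library's level.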
